A study of Homo sapiens with 8 samples.

Results

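The control state described here is that of LM2 cells treated with DMSO, the solvent of the kinase inhibitor Ponatinib, and it consists of 2 of the 8 RNA sequencing samples of the study, chosen by the label DMSO. LM2 is a derivative of the human breast cancer line MDA-MB-231 that is labelled as a triple negative breast cancer with lung specific metastasis, and all 8 samples are of this line. The other samples were LM2 treated with 1 µmol/L Ponatinib for 6 h (2 samples) and, in a separate experiment, stable lentiviral lines carrying a scrambled shRNA (shCtrl) or shRNAs against ABL1, ABL2 or both kinases (1 sample each). The cells grew in DMEM with fetal bovine serum, and the time in DMSO was not given in the sources used here. No label says that replicates 1 and 2 were separate cultures, so their difference may be technical and p-values measure only the spread between these samples. The DMSO samples held 11509379 and 10050123 counts on genes, within the range of 7568934 to 13010896 of all 8 samples.

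The study made these samples as the reference for Ponatinib, and the question asked of them here is which genes LM2 cells use without a drug. CPM is the number of reads of a gene per 1000000 reads on genes, and TPM, per 1000000 transcripts, also divides by the length of the exons, so that levels of different genes can be compared only on the TPM scale. A gene was called expressed when it passed 1 CPM in both DMSO samples, silent when neither sample held a read, and low in between. A gene with 0 counts in both samples may still have been present at up to 0.139 CPM, the level of 3 reads over both libraries. Values given as a pair are DMSO replicate 1 and then DMSO replicate 2. Ranges said to overlap or not are those of these 2 values only, and the order of 2 genes can change with the length used. These are bulk samples, so a low value from fewer cells that use a gene and one from less RNA per cell cannot be told apart.

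Carcinoma cells that have moved from an epithelial to a mesenchymal state lose E-cadherin junctions and gain vimentin, matrix and proteases, a change driven by transcription factors of the SNAI, ZEB and TWIST families. Cells of this kind often depend on receptor tyrosine kinases such as EGFR and AXL, which pass ligand binding on to SRC, ABL and MAP kinases and to AP-1 factors in the nucleus. Growth factors and cytokines that the cells secrete can act on the same cells where the matching receptor is present.

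The 4 promoters below are shown because they stand for the states that the lists turn on: EGFR and AXL, receptors that were expressed, and KRT5, a basal keratin, and CXCL12, the ligand of CXCR4, which were silent. Each line gives the 250 bases before the start of the gene, read 5′ to 3′ on the gene's strand, with each CG pair in capitals. The sequences are from RefSeq on GRCh38.p14, which held an entry for 716 of the 989 list members, and the first listed start was used where a gene had several. EGFR lies at chr7:55018767-55019016 on the plus strand, AXL at chr19:41218973-41219222 on the plus strand, KRT5 at chr12:52520395-52520644 on the minus strand and CXCL12 at chr10:44385098-44385347 on the minus strand.
EGFR: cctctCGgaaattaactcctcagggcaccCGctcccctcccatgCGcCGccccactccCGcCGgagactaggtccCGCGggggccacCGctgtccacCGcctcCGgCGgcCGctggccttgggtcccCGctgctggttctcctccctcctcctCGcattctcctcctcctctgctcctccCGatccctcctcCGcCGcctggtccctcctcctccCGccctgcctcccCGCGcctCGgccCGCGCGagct
AXL: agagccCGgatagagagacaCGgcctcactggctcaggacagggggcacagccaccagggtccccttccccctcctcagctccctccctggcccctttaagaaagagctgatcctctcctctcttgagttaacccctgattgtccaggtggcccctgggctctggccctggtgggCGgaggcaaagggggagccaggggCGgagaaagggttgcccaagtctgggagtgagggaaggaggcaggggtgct
KRT5: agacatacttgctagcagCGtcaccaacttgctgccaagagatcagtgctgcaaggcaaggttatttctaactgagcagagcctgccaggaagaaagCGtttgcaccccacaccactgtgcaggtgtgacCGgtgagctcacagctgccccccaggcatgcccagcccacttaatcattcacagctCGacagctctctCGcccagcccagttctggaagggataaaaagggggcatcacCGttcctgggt
CXCL12: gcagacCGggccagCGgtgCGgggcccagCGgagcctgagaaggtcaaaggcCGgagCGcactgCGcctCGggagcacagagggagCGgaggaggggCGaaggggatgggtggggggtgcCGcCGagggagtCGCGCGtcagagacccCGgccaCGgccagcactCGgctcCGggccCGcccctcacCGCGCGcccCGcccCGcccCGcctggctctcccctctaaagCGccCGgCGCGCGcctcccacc
CG pairs numbered 25 in EGFR and 4 in AXL, both expressed, and 6 in KRT5 and 31 in CXCL12, both silent. CG content did not sort these 4 promoters by state, and the shares over all promoters follow the gene families.

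The most abundant nuclear transcripts of DMSO-treated LM2 cells came from genes of iron storage, calcium binding and the actin skeleton. FTL, the ferritin light chain, led the nuclear protein-coding genes with 11459.7 and 11220.5 TPM. S100A6, a calcium-binding protein, had 5664 and 5832 TPM, and TMSB10, a thymosin that binds actin monomers, had 5535 and 5656 TPM. With canonical transcript lengths S100A6 came first and FTL second, with TMSB10 in place 8, so this order depends on the length used. The glycolytic enzyme GAPDH and the metallothionein MT2A, which binds metal ions, followed. GAPDH stood at 3389 and 3329.8 TPM. MT2A stood at 3059.7 and 3067 TPM. Several mitochondrial genes were higher per length than S100A6, led by the respiratory chain subunits MT-CO3 with 12789 and 13987 TPM and MT-ATP6 with 12033 and 13226 TPM. The 20 highest genes per length also held 5 pseudogene copies of MT-ATP6, MT-CO1, MT-CO3 and EEF1A1, whose reads cannot be told apart with certainty from those of the parent genes.

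By CPM, without division by length, the order changed to genes with long or very abundant transcripts. EEF1A1, the elongation factor that brings aminoacyl-tRNA to the ribosome, led with 5468 and 5497 CPM. By mean CPM the mitochondrial genes MT-CO1 (4424 CPM), MT-ND4 (4422 CPM) and MT-RNR2 (3626 CPM) came next. Of the nuclear genes after EEF1A1, PKM, a glycolytic enzyme, had 3484 and 3532 CPM, and ACTB, beta-actin, had 3465 and 3547 CPM. The actin crosslinker FLNA reached 3378 and 3424 CPM and the cytolinker PLEC 2891 and 3046 CPM. Counts were spread over many genes, since the 10 most abundant genes took 3.69% and 3.84% of all counts and the 100 most abundant 15.6% and 15.8%. Mitochondrial genes took 2.98% and 3.21%, and the 84 cytosolic ribosomal protein genes 4.35% and 4.28%. Copies named after EEF1A1 held 55.5% of the reads on that gene and its 49 pseudogenes together, so its own level is uncertain.

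The replicates differed little. Across the 15152 expressed genes the log2 difference between them had an SD of 0.23, and 51 of them (0.337%) were over 2-fold apart, 0 of which had a mean of 100 counts or more. The spread was still wider than counting alone gives, with a chi-square of 1.44 per degree of freedom. Between the 2 Ponatinib samples it was wider again, at 3.12. Of the protein-coding genes with a mean over 100 counts, the gel-forming mucin MUC5AC had the largest ratio, with 7.39 and 12 CPM. RECK, a membrane inhibitor of matrix metalloproteases, differed in the other direction with 11.3 and 7.16 CPM. These 15152 genes were 25.8% of all genes in the files, and the 11843 protein-coding ones were 60.7% of protein-coding genes. Another 4190 protein-coding genes, 21.5%, were silent, and these shares are the background for the lists that follow.

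VIM, AXL and EGFR were chosen as marks of these cells, and all 3 were expressed at high levels. VIM, the intermediate filament of mesenchymal cells, had 1849 and 1913 TPM, and 24.6% of its exon length is shared with other genes, among them the antisense gene VIM-AS1. AXL, a receptor tyrosine kinase bound by GAS6, had 795 and 785 TPM. EGFR, the receptor of the EGF family, had 114 and 111 TPM. The median of the expressed protein-coding genes was 20.6 TPM, so all 3 stood above it in both samples. The triple negative label was set beside the RNA of 3 receptors, and receptor protein was not measured in these samples. PGR, the progesterone receptor, had 0 counts in both samples, and ESR1, the estrogen receptor, was low with 10 and 4 counts. ERBB2, the HER2 receptor, was expressed at 17.2 and 18.4 TPM, below that median in both samples.

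Markers of other cell types were mostly low or silent. Of 72 such markers, 12 were expressed, 31 were low and 29 were silent, and those expressed had a median of 1.79 TPM. PTPRC, the leukocyte antigen CD45, CDH5, the cadherin of endothelial cells, and ALB, hepatocyte albumin, each had 0 counts in both samples. The highest of the 72 was the collagen gene COL1A1, with 23.6 and 22.8 TPM. The endothelial list had 3 of 8 expressed, KDR with 4.43 and 3.73 TPM, PECAM1 with 1.17 and 1.68 TPM and TIE1 with 0.742 and 0.547 TPM, all receptors or adhesion molecules of vessels. ACTA1 and AFP were expressed in the list of liver, lung and muscle, with 10.5 and 11.6 TPM and 1.74 and 1.46 TPM. Among 17 immune markers CD8A alone was expressed, with 1.77 and 2.18 TPM. The neural list had 3 of 10 expressed, led by the myelin protein gene MBP with 10.3 and 11.4 TPM. The surfactant gene SFTPC and SCGB1A1, both markers of lung epithelium, were silent.

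LM2 cells carried simple epithelial keratins beside a silent E-cadherin gene. Of 25 luminal differentiation genes 12 were expressed, 7 low and 6 silent, with a median of 30.6 TPM among the expressed. KRT18, a keratin of simple epithelia, had 237 and 238 TPM, and its partner KRT8 had 117 and 123 TPM. Pseudogenes named after these keratins held 30.9% and 26.8% of the joint reads, so both levels are uncertain. KRT7 had 157 and 164 TPM. XBP1, a factor of the secretory pathway, had 55.7 and 62.5 TPM, KRT19 50.9 and 57 TPM, and the melanophilin gene MLPH 51.1 and 56.5 TPM, and the ranges of these 3 overlapped. The luminal transcription factor GATA3 was expressed at 7.42 and 7.46 TPM, and its partner FOXA1 was low with 3 and 6 counts. TFF1, ELF5, PIP, SCGB2A2 and the milk protein genes CSN2 and LALBA were the 6 silent members.

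In the junction list catenins were expressed, while E-cadherin and several epithelial regulators were silent. Of 35 genes 18 were expressed, 12 low and 5 silent, with a median of 18.2 TPM. CTNNA1, alpha-catenin, had 264 and 266 TPM and CTNNB1, beta-catenin, 141 and 140.3 TPM. EPCAM, an epithelial adhesion molecule, had 14.2 and 9.6 TPM, and the claudin CLDN7 had 8.93 and 7.89 TPM. CDH1, which encodes E-cadherin, had 0 counts in both samples. The desmosomal cadherin DSG3, the epithelial transcription factors GRHL2 and OVOL1 and the small GTPase RAB25 were silent too. The epithelial splicing factor ESRP1 was low with 11 and 6 counts.

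Of the basal genes, those of laminin and integrin chains were expressed and the keratins were low or silent except KRT15, with 1.18 and 1.01 TPM. Of 25 basal and myoepithelial genes 15 were expressed, 7 low and 3 silent, with a median of 21.0 TPM. LAMB3, a chain of the basement membrane laminin, had 488 and 495 TPM, and CAV1, the caveolae coat protein, 435 and 432 TPM. ITGA6, the laminin-binding integrin chain, had 184 and 178 TPM. The silent members were the keratins KRT5 and KRT14 and the chaperone gene CRYAB. TP63, the transcription factor of basal epithelium, was low with 9 and 4 counts.

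Mesenchymal effectors were expressed in larger number than any lineage list, with 34 of 40 expressed, 4 low and 2 silent, against the protein-coding share of 60.7%. Their median among the expressed was 66.0 TPM. After VIM, the galectin LGALS1 had 1383 and 1365 TPM and CCN1, a matricellular protein, 1141 and 1121 TPM. The caveolae protein CAVIN1, with 640.0 and 649 TPM, and the matricellular CCN2, with 654 and 607 TPM, overlapped in range. NT5E, the surface enzyme CD73, had 577 and 567 TPM, and the hyaluronan receptor CD44 had 249.9 and 236 TPM. Fibronectin, FN1, was lower at 77.1 and 78.4 TPM. CDH2, which encodes N-cadherin, was low with 12 and 5 counts, and the matrix genes POSTN and COL3A1 were silent.

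The factors that drive the mesenchymal change were expressed in part. Of 14 genes 8 were expressed, 3 low and 3 silent, with a median of 16.7 TPM. FOSL1, a subunit of AP-1, had 987 and 1006 TPM, more than 10 times the level of the next member TCF3, with 76.5 and 71.1 TPM. ZEB1, a repressor of epithelial genes, had 51.8 and 49 TPM. SNAI2 had 31.6 and 30.0 TPM. SNAI1 and ZEB2 were lower, with 3.26 and 2.15 TPM and 2.64 and 2.68 TPM, and their ranges overlapped. TWIST1, TWIST2 and GSC were silent.

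**Figure D1:**
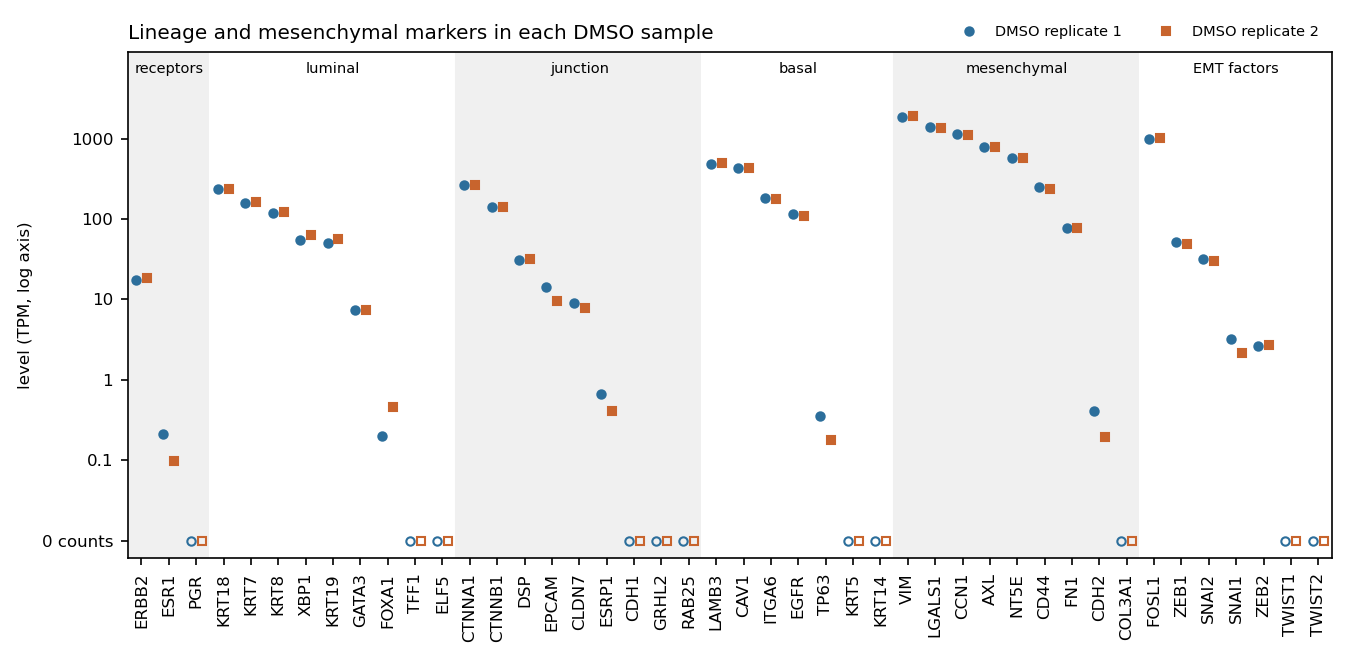
TPM (log axis) of lineage and mesenchymal markers in DMSO replicate 1 (circles) and replicate 2 (squares), grouped by list, with open symbols on the bottom line for 0 counts. VIM, LGALS1 and CCN1 are the highest of the plotted genes, while CDH1, KRT5, KRT14, TWIST1 and TWIST2 sit at 0 counts.

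Among cell surface and nuclear receptors 136 of 250 were expressed, 61 were low and 53 silent. The receptor tyrosine kinases had 31 of 58 expressed, 16 low and 11 silent, with a median of 6.93 TPM, and a few members carried most of the signal. EPHA2, a receptor of ephrins, followed AXL with 378 and 388 TPM. MET, the receptor of HGF, came after EGFR with 66 and 64.2 TPM. EPHB4 had 25.5 and 30.0 TPM and FGFR1 24.3 and 24.3 TPM, and RYK, between FGFR1 and MERTK, overlapped each of them in range. INSRR, FLT4, FGFR2, ROR2, NTRK3, EPHA3, EPHA8, EPHB1, EPHB6, RET and ROS1 were the 11 silent members.

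TGFBR2, which binds the ligand, had 125 and 127 TPM, and its signalling partner TGFBR1 53.5 and 55.3 TPM, in a list with 11 of 14 expressed (median 14.5 TPM). The interleukin and cytokine receptors had 31 of 53 expressed (median 8.22 TPM), a share close to that of all protein-coding genes. F3, tissue factor, which belongs to this family by sequence, had 302 and 272 TPM. IL13RA2, the decoy receptor of IL13, had 189 and 200.3 TPM, and IL6ST, the shared chain gp130, 74 and 70.1 TPM. OSMR, which pairs with gp130, had 62.8 and 59.5 TPM. IL1R2, IL2RG, IL10RA and CSF2RB were among the 10 silent members.

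TNF receptors were expressed in 18 of 29 cases (median 6.75 TPM). TNFRSF12A, the receptor of TWEAK, had 293 and 279.7 TPM, TNFRSF21 had 162 and 174 TPM, and TNFRSF1A, the main TNF receptor, 134 and 144 TPM. Chemokine receptors were at the other end, with 0 of 22 expressed, 10 low and 12 silent. CCR1 had the most reads over both samples, 7 and 10 counts, and CXCR4, the receptor of CXCL12, had 1 count in each. CXCR1 and CXCR2, which bind CXCL8, were silent. None of these receptors can be called absent from the cells, since a read count of 0 allows up to 0.139 CPM.

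Integrins, which anchor cells to matrix, were expressed for 14 of 26 chains, with 7 low and 5 silent and a median of 40.7 TPM. ITGA3, a laminin-binding chain, had 447 and 448 TPM. ITGB1, its partner, had 243 and 229 TPM. ITGA2, which pairs with ITGB1 to bind collagen, had 107 and 102 TPM, and ITGB4, the partner of ITGA6, 85.5 and 98.5 TPM. ITGA8, ITGB6 and the leukocyte chains ITGAM, ITGAX and ITGAD were silent, while ITGB2 and ITGAE, also chains of leukocytes, were expressed with 16 and 15.7 TPM and 16.1 and 15.4 TPM.

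Nuclear receptors had 31 of 48 expressed, 6 low and 11 silent, with a median of 15.4 TPM. NR2F2, the orphan receptor COUP-TFII, led with 191 and 191 TPM. RXRB, a shared dimer partner, had 72.3 and 83.4 TPM, and the clock repressor NR1D2 72.3 and 69.4 TPM. The glucocorticoid receptor NR3C1 had 53.1 and 51.8 TPM, in the same range as PPARD with 50.6 and 53.4 TPM. Besides PGR, the silent members included HNF4A, RXRG and NR5A1.

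Kinases had the highest share expressed of the list groups, 100 of 125 or 80.0%, with 6 silent. Among 32 non-receptor tyrosine kinases 18 were expressed (median 17.6 TPM). CSK, which restrains SRC family kinases, led with 89.9 and 86.2 TPM. ABL1, a target of Ponatinib and of the shRNAs of the other experiment, had 78.4 and 76.7 TPM, and ABL2 had 66.5 and 60.4 TPM. Both were expressed in each DMSO sample, and their ranges did not overlap. YES1 had 46.3 and 44.7 TPM and SRC itself 14.2 and 16.7 TPM. The myeloid kinase FGR was silent.

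Of 52 genes of the MAP kinase cascade 46 were expressed, 4 low and 2 silent, with a median of 25.05 TPM. MAPKAPK2, which acts below p38, had 122 and 124 TPM, and MAP2K3, which activates p38, 110.2 and 117 TPM. MAPK14, p38-alpha itself, had 100.4 and 97.4 TPM. MAPK3, a kinase of the ERK arm, had 32.3 and 29.4 TPM. ARAF, which acts above it, had 80.7 and 79.8 TPM and BRAF 4.24 and 4.13 TPM, and these ranges did not overlap. MOS, the germ cell kinase of this cascade, and MAPK4 were silent.

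Cell cycle kinases had 36 of 41 members expressed, 3 low and 2 silent, with a median of 56.4 TPM, the highest of the kinase lists. AURKA, a kinase of the spindle poles, had 337 and 322 TPM. PBK, with 203 and 203 TPM, and AURKB, the kinase of the chromosome passenger complex, with 203 and 199.5 TPM, overlapped in range. CDK1, the mitotic kinase, had 194 and 196 TPM, and CDK4, a kinase of the G1 phase, 179 and 169.6 TPM. Of the exon length of CDK4, 44.2% overlaps TSPAN31. WEE2 and PLK5 were silent.

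The 6 groups of lists were lineage, mesenchymal, receptor, kinase, cytokine and transcription factor. Of these the cytokine group, which holds the ligands, had the lowest share expressed, 62 of 210 or 29.5%. Another 68 were low and 80 silent, against 60.7% expressed and 21.5% silent among protein-coding genes. Interleukins and colony stimulating factors had 16 of 57 expressed, 11 low and 30 silent, with a median of 15.8 TPM. CSF3, the growth factor of neutrophils, led with 136 and 134 TPM. IL11 had 99 and 101 TPM, CLCF1 80.1 and 83.2 TPM and LIF 73.2 and 76.9 TPM, all 3 ligands of gp130 complexes. IL6, the best known of that family, was lower with 5.76 and 6.4 TPM. CSF1, the growth factor of macrophages, had 67.3 and 76.4 TPM, IL18 62.6 and 69.6 TPM and the inflammatory cytokine IL1B 55.4 and 57.8 TPM. The range of CSF1 overlapped those of LIF and IL18, which did not overlap each other. IL2, IL3, IL4, IL5, IL10, IL13, IL33 and the antagonist IL1RN were silent.

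Chemokines had 5 of 43 expressed, 15 low and 23 silent, with a median of 14.1 TPM. CXCL8 had 33 and 39.4 TPM, CXCL1 25.8 and 22.8 TPM, CXCL2 13.6 and 14.5 TPM and CXCL3 2.51 and 2.4 TPM, 4 attractants of neutrophils. CCL28, a mucosal chemokine, had 5.18 and 7.37 TPM. CXCL12, CXCL9, CXCL10, CXCL11, CCL3, CCL4 and CCL5 were among those with 0 counts in both samples. TNF ligands had 6 of 18 expressed (median 4.55 TPM), led by TNFSF9 with 34.6 and 43.9 TPM, and TNF itself was silent.

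Growth factors of receptor tyrosine kinases had 24 of 59 expressed, 22 low and 13 silent, with a median of 17.3 TPM. HBEGF, a ligand of EGFR, had 122 and 118 TPM, and EREG, another, 69.6 and 70.5 TPM. VEGFC had 91.7 and 91.8 TPM and VEGFB 77.9 and 86.8 TPM, both ligands of VEGF receptors. PDGFC had 74.4 and 73.7 TPM. GAS6, the ligand of AXL, had 64.3 and 67.6 TPM, and PROS1, which binds the related receptors MERTK and TYRO3, 22.4 and 20.1 TPM. HGF, IGF2 and GDNF were silent. The TGF-beta superfamily had 11 of 33 ligands expressed (median 15.2 TPM), with TGFB1 at 61.1 and 66.8 TPM, TGFB2 at 56.9 and 58.7 TPM and BMP4 at 50.6 and 55 TPM.

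Set side by side by family, a choice made after the values were seen, ligands and receptors were present together in some families and apart in others. EGFR was expressed with HBEGF, EREG, TGFA, AREG and EGF, and AXL with GAS6. NRG1 and NRG2 of the EGF family were expressed too. Of the other receptors of that family, ERBB3 had 1.10 and 1.08 TPM and ERBB4 was low with 3 and 1 counts. Receptors and ligands of TGF-beta were expressed together as well. MET was expressed and its ligand HGF was silent. In the reverse case, CSF3 was expressed and its receptor CSF3R had 1 and 0 counts, and CSF1 was expressed while CSF1R stayed just under the threshold with 11 and 10 counts. CXCL8 was expressed with CXCR1 and CXCR2 silent. Of the VEGF receptors FLT4 was silent and KDR was expressed with 4.43 and 3.73 TPM.

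**Figure D2:**
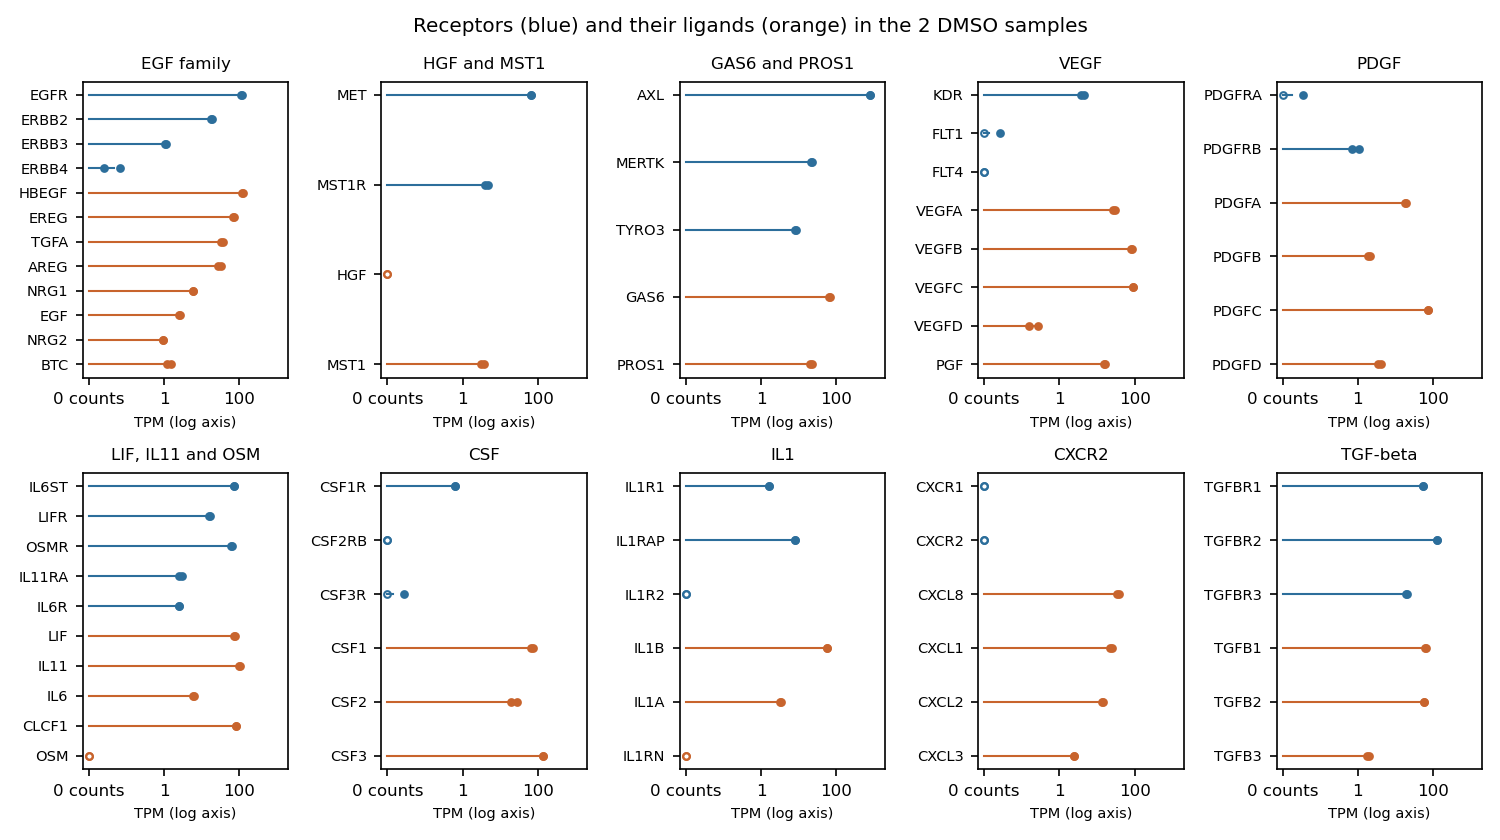
TPM (log axis) of receptors (blue) and ligands (orange) of 10 families, with a point for each of the 2 DMSO samples, a line that runs to their mean, and open points for 0 counts. EGFR, AXL, MET and TGFBR2 reach far to the right with at least some ligands of their families, HGF lies at 0 counts, and CXCR1 and CXCR2 lie at 0 counts beside 4 expressed ligands.

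Transcription factors had 125 of 222 expressed, 47 low and 50 silent. AP-1, the dimer of JUN and FOS proteins, had 10 of 12 members expressed and 0 silent, with a median of 27.2 TPM. After FOSL1, JUN had 256 and 268 TPM and JUND 109.6 and 120.1 TPM. FOS, an immediate early gene, was lower at 4.69 and 4.71 TPM. Of 27 ETS factors 17 were expressed (median 36.7 TPM), led by ETS1 with 181 and 175 TPM and ELK3 with 152 and 142 TPM. The leukocyte factor SPI1 and the endothelial factor ERG were silent.

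Of the KLF and SP factors 20 of 26 were expressed, led by KLF6 with 112 and 107 TPM, KLF4 with 67.8 and 65.8 TPM and SP1 with 62.7 and 65.1 TPM. GATA factors were split, with GATA6 at 10.9 and 11.8 TPM and GATA2 at 6.43 and 7.46 TPM beside GATA3, and GATA1, GATA4 and GATA5 silent. SOX9, a factor of progenitor cells, had 85.2 and 95 TPM, in a family with 7 of 19 expressed. FOXM1, a regulator of mitotic genes, had 253 and 252 TPM, and FOXA2, a factor of endodermal epithelium, 66.8 and 65.9 TPM, in a family with 19 of 43 expressed.

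Mediators of cytokine and contact signals were mostly expressed, with 23 of 29 STAT, IRF, NF-kB and SMAD factors and 18 of 21 TEAD, RUNX and MYC factors. RELA, a subunit of NF-kB, had 83.8 and 87.3 TPM. SMAD3, which carries the TGF-beta signal, had 71.8 and 72.7 TPM and STAT6 71.6 and 72.1 TPM, and their ranges overlapped. STAT3, which acts below gp130, had 47.7 and 46.7 TPM. TEAD1 had 149 and 141 TPM and its coactivator YAP1 126 and 122 TPM. IRF8 and MYCN were the only silent members of these lists.

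HOX genes, which mark position along the body axis, were expressed from few loci. Over the 39 genes 8 were expressed, 12 low and 19 silent. The HOXB cluster had 5 of 10 expressed with 305 and 313 counts in all. HOXA had 0 of 11 expressed and 10 silent, with 4 and 5 counts in all, which came from HOXA13. HOXC had 2 of 9 expressed with 49 and 56 counts, and HOXD 1 of 9 with 67 and 54. HOXB9, with 8.49 and 12.5 TPM, HOXD1, with 8.69 and 7.78 TPM, and HOXB5, with 8.51 and 6.46 TPM, overlapped in range.

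**Figure D3:**
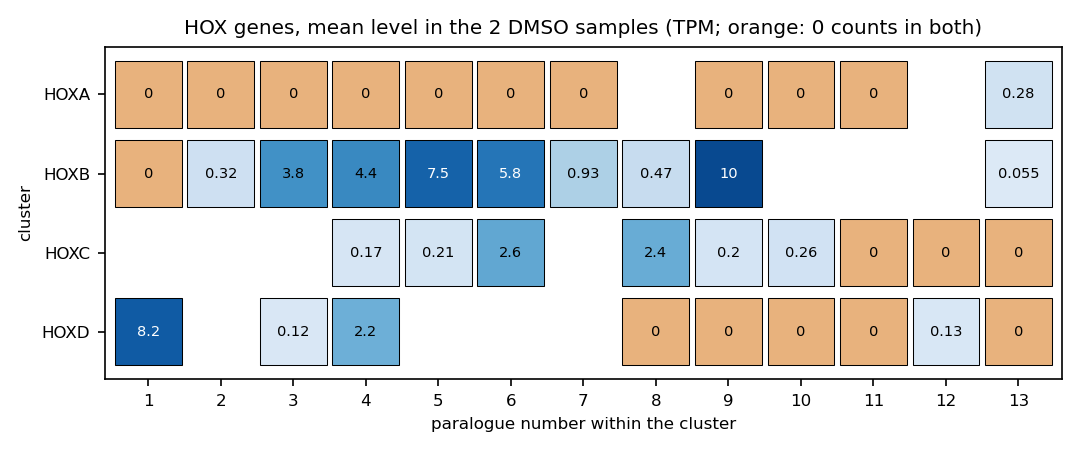
Mean TPM of each HOX gene over the 2 DMSO samples, by cluster (rows) and paralogue number (columns), with orange boxes for genes with 0 counts in both samples. The HOXB row holds 5 expressed genes and the HOXA row is silent but for HOXA13, which was low.

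**Figure D4:**
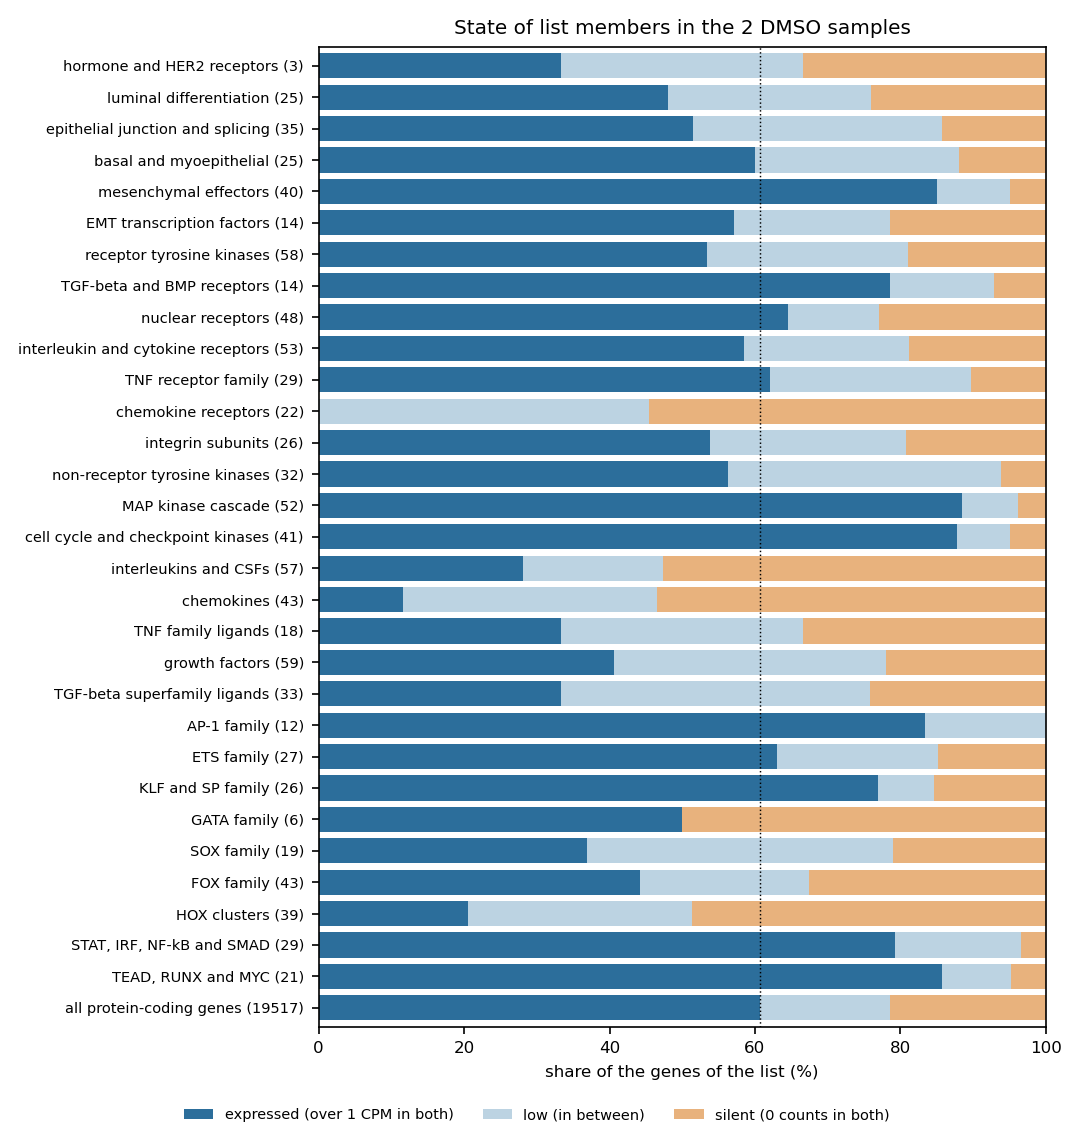
Share of the genes of each list (%) that were expressed, low or silent in the 2 DMSO samples, with the number of genes in brackets and the dotted line at the share of expressed protein-coding genes, 60.7%. MAP kinases, cell cycle kinases and mesenchymal effectors lie to the right of the line, and chemokines, HOX genes and chemokine receptors far to its left.

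CG content was counted in the promoters of all protein-coding genes with a RefSeq entry, where expressed genes had more of it than silent ones. The count of CG pairs in the 300 bases from 250 before to 50 after the start, relative to that given by the C and G content, was over 0.6 in 84.3% of 9713 expressed genes, 45.0% of 2526 low genes and 28.2% of 2954 silent genes. The 6 groups of lists had 75.7% of 383 expressed, 39.7% of 151 low and 29.9% of 147 silent promoters over this ratio. Among silent members, transcription factors had 63.6% of 33 promoters over the ratio and cytokines 13.3% of 60. The letters TATAAA, or TTTATA for the other strand, between 60 and 11 bases before the start, were in 4.54% of all 15193 promoters, with overlapping matches of the strands counted once. Over all genes they were in 2.04% of expressed, 6.93% of low and 10.7% of silent promoters. For cytokines the shares were 19.6% of 46 expressed, 12.5% of 48 low and 30.0% of 60 silent promoters. These are counts of letters and were not tested.

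Some calls rest on few reads. Of the 989 list members 66 had their lower value between 0.5 and 2 CPM. Just above the threshold stood ACTA2 with 1.04 and 1.39 CPM, NR4A3 with 1.04 and 1.09 CPM, CD40 with 1.04 and 1.59 CPM and TNFSF13 with 1.04 and 1.69 CPM. TNFSF13 shares 55.5% of its exon length with a readthrough gene. Just below it stood CCL26 with 0.956 and 1.29 CPM, BTC with 0.956 and 1.19 CPM, CSF1R with 0.956 and 0.995 CPM and IRF9 with 1.3 and 0.896 CPM. Over 25% of the exon length was shared with another gene in 15 of the 505 expressed members, whose reads cannot be assigned with certainty.

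The 6 lung metastasis genes that the study followed were all expressed in DMSO. MMP1, a collagenase, had 158 and 164 TPM. The matrix protein gene TNC had 39.8 and 38.6 TPM and LY6E, a surface protein, 35.3 and 41.7 TPM, and the ranges of these overlapped. PTGS2, the prostaglandin synthase COX-2, had 12.8 and 14.6 TPM and ANGPTL4, an inhibitor of lipoprotein lipase, 13.1 and 10.6 TPM, which overlapped too. PLAAT4, named RARRES3 in the study, was lowest with 3.83 and 4.36 TPM.

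The same state was read in the other control of the study, the shCtrl line, which is a single library of another experiment. Its header cell and that of the ABL1 shRNA sample name each other's condition. The labels were followed in taking 1 of them as the scrambled control, and ABL1 RNA was not used to check this choice. Of 18 non-receptor tyrosine kinases expressed in DMSO, ABL1 among them, 0 were over 2-fold lower in shCtrl. A fall of less than 2-fold would not show in that count. Of the genes expressed in DMSO 88.4% were also over 1 CPM in shCtrl, and of the protein-coding ones 98.7%. Pseudogenes took 4.35% and 4.34% of the DMSO counts and 1.78% of those of shCtrl, and the part of read handling in the differences was not tested. Line, lentivirus, experiment and library cannot be told apart in this comparison, no test was made, and intervals cover counting error only. Of 16353 genes compared, 10.4% were over 2-fold higher in shCtrl and 15.3% lower, on values with 0.5 CPM added. Of the protein-coding genes expressed in DMSO, 8.58% were higher and 5.29% lower, which is the background for the members.

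Chemokines and some matrix genes stood higher in shCtrl than in DMSO. All 5 chemokines expressed in DMSO were over 2-fold higher, with a median log2 difference of 2.88. CXCL8 had 25.4 and 30.4 CPM in DMSO and 379 CPM in shCtrl (95% Wilson interval 368 to 390.2), 13.6-fold higher. CXCL1 had 10.4 and 9.25 CPM and 234 CPM (226 to 243), 23.8-fold higher. The cytokine group as a whole had 20 of 62 members higher and 3 lower. Mesenchymal effectors had 9 of 34 higher and 3 lower. FN1 had 394 and 403 CPM in DMSO and 4132 CPM in shCtrl (4096 to 4169.5), 10.4-fold higher, and MMP2, a gelatinase, had 2.95 and 4.58 CPM and 95 CPM (89.6 to 101). Of 14 integrin chains 6 were higher and 0 lower, led by the collagen-binding chain ITGA1 with 41.8 and 47.6 CPM in DMSO and 418 CPM in shCtrl.

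Cell cycle kinases stood lower in shCtrl. Of 36 members expressed in DMSO 0 were over 2-fold higher and 6 lower, with a median log2 difference of -0.69, against 0.01 over the protein-coding genes expressed in DMSO. HASPIN, a kinase of histone H3, had 34.1 and 36.3 CPM in DMSO and 10.5 CPM in shCtrl (8.8 to 12.5). FOXM1 had 369 and 371 CPM in DMSO and 136 CPM in shCtrl (129.5 to 143), and CCN2 454 and 423 CPM and 126 CPM (120.1 to 133). AXL had 1211 and 1202 CPM in DMSO and 587 CPM in shCtrl (573 to 601), 2.06 times higher in DMSO. The other groups had 10 of 46 lineage members higher and 1 lower, 29 of 136 receptors higher and 6 lower, 4 of 100 kinases higher and 6 lower, and 18 of 125 transcription factors higher and 9 lower.

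**Figure D5:**
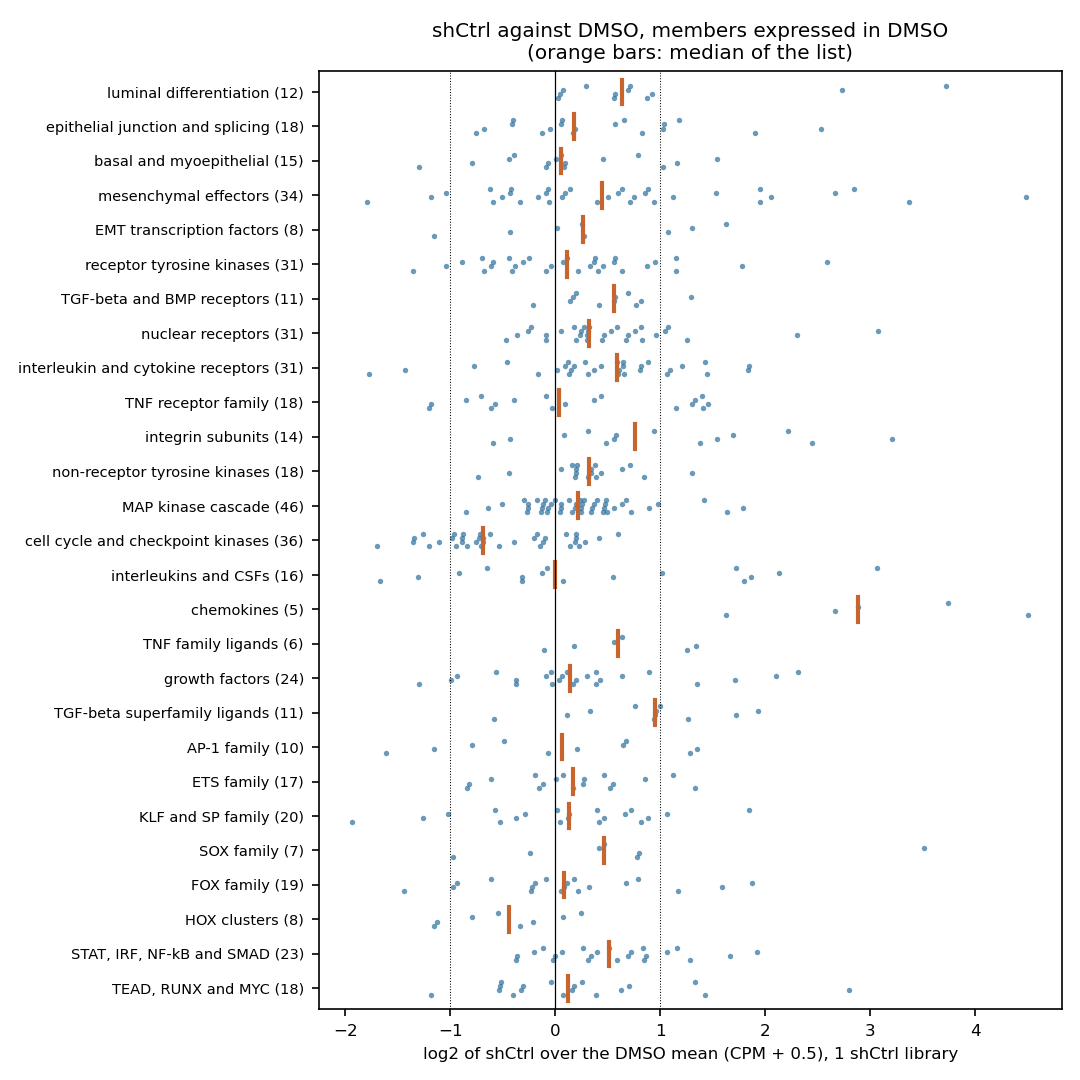
Log2 of CPM in the 1 shCtrl library over the mean of the 2 DMSO samples (0.5 CPM added to both), a point for each member expressed in DMSO, by list, with the number of members in brackets, orange bars for medians and dotted lines at 2-fold. The chemokine points all lie to the right of the dotted line at 2-fold, with a median of 2.88, and the cell cycle kinases have a median of -0.69.

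Across the other condition of the same experiment, the members moved both ways. After Ponatinib, edgeR's quasi-likelihood test called 15.0% of 16031 tested genes higher and 15.7% lower at a Benjamini-Hochberg adjusted p under 0.05. Of the 522 members of the 6 groups that were tested, 125 were higher and 125 lower. The cytokine group had 16 higher and 24 lower of 69, mesenchymal genes 7 and 14 of 42, and receptors 33 and 29 of 143. Kinases had 21 and 19 of 102, lineage genes 14 and 10 of 51, and transcription factors 38 and 34 of 134. The numbers of calls fell by over 1.5 times when DMSO replicate 1 or 2 was left out, from 4917 over all genes to 2800 and 3242.

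Of the marks of these cells, EGFR and AXL fell and VIM did not pass the test. EGFR had 542 and 526 CPM in DMSO and 322 and 367 CPM after Ponatinib, a log2 change of -0.68 (SE 0.07, edgeR adjusted p = 2e-06). AXL had 1211 and 1202 CPM and 977 and 1059 CPM, a log2 change of -0.29 (SE 0.06, edgeR adjusted p = 0.0015). VIM had 2840.0 and 2955 CPM and 3179 and 3067 CPM (log2 change 0.06, SE 0.05, edgeR adjusted p = 0.41). The groups did not overlap for any of the 3, also not for VIM, whose change was small. EPHA2 fell from 464 and 479 CPM to 123 and 130.4 CPM (log2 change -1.94, SE 0.06, edgeR adjusted p = 1.6e-11), lower in both Ponatinib samples than in either DMSO sample. Of the ligands that led their lists in DMSO, CSF3 fell from 89.8 and 89 CPM to 7.78 and 9.38 CPM (log2 change -3.44, SE 0.10, edgeR adjusted p = 9.6e-12) and HBEGF from 108 and 105 CPM to 17.6 and 17.8 CPM (log2 change -2.64, SE 0.08, edgeR adjusted p = 1.4e-11). CCN2 fell from 454 and 423 CPM to 64.2 and 54.2 CPM (log2 change -2.92, SE 0.08, edgeR adjusted p = 4.8e-12). Among weakly expressed members, SNAI1 rose from 1.65 and 1.09 CPM to 6.05 and 5.81 CPM (log2 change 2.04, SE 0.27, edgeR adjusted p = 4.5e-05). The stress-induced ligand GDF15 rose from 11 and 11.5 CPM to 50.6 and 49.9 CPM (log2 change 2.11, SE 0.10, edgeR adjusted p = 1.3e-09).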

How the data were processed

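RNA of 8 LM2 samples was sequenced, and the counts the authors deposited are raw reads per gene on hg38, not normalized, for 58688 genes. The submitters' processing notes name FastQC, TopHat and HTSeq 0.6.0, and the annotation release and the strand setting are not given in the sources used here. Summary rows of the counter were left out of library sizes. CPM used the total of all genes, and TPM the exon-union length of GENCODE 44, which matched 54836 genes by identifier. An alternative length was that of the canonical transcript.

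The members and lists, with 990 genes in 38 lists of which 989 were in the files, were chosen with earlier results of these data known. Named were members among the 5 highest per list by TPM and silent ones. The highest genes of all, the largest changes and those nearest the threshold were named too. Fewer than 5 of the highest were named in several lists, so an unnamed member can stand above a named one. Other members, such as ligand and receptor partners, were chosen after the values were seen. DMSO alone was described without a test. Ponatinib was tested with edgeR 4.0.16 in R 4.3.3 (TMM, filterByExpr, quasi-likelihood, prior count 0.125, Benjamini-Hochberg adjusted p under 0.05). In simulated counts for that comparison it recovered 198 of 200 genes changed 2-fold among 15764 run, and called 16 unchanged ones. Of 200 genes changed 1.5-fold it recovered 170. The changed genes were drawn only from those with many reads, so recovery of weakly expressed genes was not tested. shCtrl was compared by CPM with 0.5 CPM added, with a 95% Wilson interval. Alternatives were other thresholds, scalings, filters, lengths, DESeq2 1.42.0, a replicate block and leaving out each replicate. The header cells of the shCtrl and ABL1 shRNA tables name each other's condition, and the labels were followed. A few list members are counted in their lists but not reported here by name.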

Additional observations from a re-analysis of the deposited data

How the results depend on the processing

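The number of expressed genes, 15152, ranged from 13643 at 2 CPM to 16678 at 0.5 CPM, and that of expressed list members, 505, from 473 to 539. The share of the 10 most abundant genes moved from 3.77% (mean of the 2 samples) to 3.43% without mitochondrial genes and to 9.59% on the TPM scale. With canonical transcript lengths, 50 of the 505 expressed members moved over 2-fold from the median ratio of 0.858, so single TPM values depend on the annotation, and Spearman's rho of both scales across these genes was 0.967. Ponatinib calls were 4917 with edgeR, 2809 with DESeq2's Wald test and 2800 to 5744 when a replicate was left out, with the lowest counts without DMSO replicate 1 (2800) and DMSO replicate 2 (3242). The repeat numbers did not pair the samples (correlation of same-numbered deviations 0.02 over 16031 genes), and with the replicate block 4984 genes were called. In shCtrl 4200 genes were over 2-fold apart, 40.3% of them higher. Over protein-coding genes, an alternative added after seeing the data, 2051 were, of which 69.4% were higher, and over all genes 2913 with 2 CPM added. The cause of these differences was not tested. A group of 2 samples allows no check for outlying samples, and depth limits what can be said of genes under about 1 CPM.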

Other observations

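A run of neighbouring genes on chromosome 9, noticed after the values were seen, was silent in DMSO but for 1 count on CDKN2B, and held tumour suppressors. The 24 protein-coding genes from HACD4 to IZUMO3 at chr9:20999509-24545946 (GRCh38), among them the type I interferon genes, MTAP, an enzyme of methionine salvage, and the cell cycle inhibitors CDKN2A and CDKN2B, had 1 count in all over both DMSO samples and 2 counts over all 8 samples. The genes on either side were read in every DMSO sample, FOCAD with 40 and 46 counts and TUSC1 with 138 and 114 counts. DNA was not measured, and the cause of the run was not tested.

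Noncoding classes made up a small part of the DMSO libraries. Of 13673 long noncoding RNA genes 794 were expressed, and they took 0.845% and 0.859% of the counts. Of 10015 processed pseudogenes 1794 were called expressed, a higher share, but reads of such copies cannot be told apart with certainty from those of parent genes. In the shRNA samples pseudogene classes took 1.69% to 1.78% of the counts, and 1039 genes expressed in DMSO had 0 counts in shCtrl. In all 4 shRNA samples 745 of the genes expressed in DMSO had 0 counts, and only 22 of these were protein-coding. The part of read assignment in this was not tested.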
